A study of Mus musculus with 16 samples.

Results

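This account describes 10 genes of the basal and squamous epithelial programme, chosen by name among the 54532 genes listed in the deposited tables: the keratins Krt5, Krt14, Krt15, Krt17, Krt6a, Krt16 and Krt13, the transcription factor gene Trp63, the desmosomal cadherin gene Dsg3 and the cornified envelope gene Sprr1a. All 10 were found in both tables. They were followed in cells of KPC1199, a single mouse pancreatic cancer line, that had been sorted from tumours grown in the pancreas. Cells overexpressing Ly6d were compared with WT cells, and cells with high Ly6d (Ly6d-high) with those low in Ly6d (Ly6d-low), with 2 libraries in each of the 4 groups. All of these groups come from the same line and the same kind of tumour; the vector that drove Ly6d and the gates of the sorts are not given in the sources used here. A further 8 samples of whole tumour tissue are labelled, 4 WT and 4 overexpression, and were not analysed here.

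Keratins are the filament proteins of epithelial cells and assemble as pairs of a type I and a type II protein. Simple epithelia, such as pancreatic ducts, use Krt8, Krt18, Krt19 and Krt7, whereas the dividing basal layer of stratified epithelia uses Krt5 with Krt14 and depends on p63, the product of Trp63. In human pancreatic cancer, p63 and the basal keratins mark the squamous or basal-like form of the disease.

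The assignment of the count columns rests on names. The WT columns carry the names that open the titles of the sorted WT samples, although the same letters also occur inside the titles of tissue samples. The overexpression columns bear a name found in the titles of overexpression tissue, whereas the sorted titles abbreviate the group differently, so their place in the sorted group is an inference. Totals ran from 15449241 to 18290325 counts in the overexpression and WT libraries, and from 15063975 to 20509539 reads recovered from the TPM of the sorts by Ly6d level. Ly6d itself was at 3380 and 3423 CPM (counts scaled to library total) in overexpression, against 1260 and 1066 CPM in WT. It was at 697 and 504 TPM (transcript abundance scaled to a fixed total, corrected for gene length) in Ly6d-high, against 1.56 and 0.352 TPM in Ly6d-low, a difference that the sort fixed. The epithelial markers Epcam, Cdh1, Krt7, Krt8, Krt18 and Krt19 together reached 12607 and 13306 CPM in overexpression, against 12266 and 11881 CPM in WT, and 39489 and 38558 TPM in Ly6d-high, against 55454 and 56565 TPM in Ly6d-low. These sums were mostly Krt8, Krt18 and Krt19, so they say little about Epcam and Cdh1. Epcam was at a mean of 1983 TPM in Ly6d-high and 2361 TPM in Ly6d-low (limma adjusted p = 0.105). Cdh1 was at 206 TPM in Ly6d-high and 168 TPM in Ly6d-low (limma adjusted p = 0.224). No label says that libraries came from separate animals, so p-values measure the spread between these libraries.

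The 5 type I keratins lie in one cluster on the minus strand of chromosome 11 (GRCm38), from Krt13 at 100117327 to 100121566, through Krt15 at 100131758 to 100135928, Krt14 at 100203162 to 100207548 and Krt16 at 100246091 to 100248902, to Krt17 at 100256217 to 100261029. The 2 type II keratins lie on chromosome 15, Krt6a at 101689910 to 101694307 and Krt5 at 101707070 to 101712898. Trp63 is on chromosome 16 (25683763 to 25892102) and Sprr1a on chromosome 3 (92483952 to 92485895). These neighbouring keratin genes resemble each other, and reads from identical stretches could be split among them or dropped. Of the 50-base windows of the longest coding transcript in GENCODE, 3.99% were shared with another gene for Krt17, 14.4% for Krt14, 37.6% for Krt16 and 49.5% for Krt6a, the last mainly with Krt6b. Krt16 shared 382 windows with Gm11597 and 188 with Krt14. None were shared for Krt13, Sprr1a and Trp63, 0.666% for Krt15, 0.357% for Dsg3 and 8.52% for Krt5. Values of Krt16 and Krt6a are therefore the least certain. The longest identical coding runs show where the type I genes cannot be told apart. Krt17 and Krt14 share 71 bases of exon 6 (Krt17 chr11:100257439-100257509, minus strand), and Krt16 and Krt14 share 134 bases of exon 1 (Krt16 chr11:100248476-100248609, minus strand), given 5′ to 3′.
Krt17 and Krt14: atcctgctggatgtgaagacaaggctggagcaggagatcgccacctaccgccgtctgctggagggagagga
Krt16 and Krt14: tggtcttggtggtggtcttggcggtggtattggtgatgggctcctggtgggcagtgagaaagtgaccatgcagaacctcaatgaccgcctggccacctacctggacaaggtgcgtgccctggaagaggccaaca

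RefSeq promoter windows (GRCm38.p6, 250 bases before to 50 after the gene start) were on hand for 4 of the 10 genes, Sprr1a, Krt13, Krt14 and Krt5. The windows of Sprr1a, the gene with the highest level, and of Krt5, which had no reads in most libraries, are printed 5′ to 3′. Among these 4 genes they stand at the ends of the range of levels. Capitals mark matches, on either strand, to the box TATAAA, to the AP-1 motif TGANTCA, to the Sp1 motif GGGCGG or to the spaced, paired core of the p53-family motif.
Sprr1a, chr3:92485832-92486131, minus strand: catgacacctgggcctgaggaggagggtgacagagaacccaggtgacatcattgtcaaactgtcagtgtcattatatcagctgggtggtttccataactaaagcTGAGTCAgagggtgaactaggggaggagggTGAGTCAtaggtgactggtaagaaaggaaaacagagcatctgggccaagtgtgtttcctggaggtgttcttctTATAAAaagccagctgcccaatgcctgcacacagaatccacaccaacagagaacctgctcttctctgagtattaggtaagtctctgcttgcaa
Krt5, chr15:101712856-101713155, minus strand: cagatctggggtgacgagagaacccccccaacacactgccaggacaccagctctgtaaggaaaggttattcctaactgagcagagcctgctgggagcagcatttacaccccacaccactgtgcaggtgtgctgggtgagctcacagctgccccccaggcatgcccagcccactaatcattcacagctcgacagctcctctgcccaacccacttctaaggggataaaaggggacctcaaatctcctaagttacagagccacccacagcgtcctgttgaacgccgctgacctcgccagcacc
The Sprr1a window holds TATAAA 43 bases before the start (offset -43) and TGANTCA at offsets -146 and -116. The Krt5 window holds none of the 4 motifs, which says only that these letters are not in it. Among 32851 promoter windows, 13.6% hold TATAAA, 7.81% TGANTCA, 35.7% GGGCGG and 0.712% the paired p53-family core. TGANTCA also occurs in both windows of Krt13, at offset -196 in the first and at -183 and -34 in the second, and none of the 4 motifs occurs in the Krt14 window. The Krt14 window and the second Krt13 window lie inside the genes as listed above.

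Basal identity genes were close to absent in every library. Trp63, whose p63 protein directs the basal programme, had 0 and 9 counts in overexpression, against 9 and 0 in WT, and 3 and 0 recovered reads in Ly6d-high, against 3 and 4 in Ly6d-low. Its highest value per length was 0.0624 TPM, in a Ly6d-low library. Krt5, the type II keratin of the basal layer, had 0 and 8 counts in overexpression, against 0 and 0 in WT. It had 0 and 5 recovered reads in Ly6d-high, against 0 and 0 in Ly6d-low. A single overexpression library and a single Ly6d-high library thus held all Krt5 reads. A count of 0 allows up to 3 counts, which is 0.166 and 0.194 CPM in the WT libraries and 0.226 and 0.179 TPM of Krt5 in the Ly6d-low libraries, by counting error alone. Dsg3, a cadherin of the desmosomes that join keratinocytes, had 6 and 0 counts in overexpression, against 5 and 1 in WT, and 2 and 5 recovered reads in Ly6d-high, against 1 and 0 in Ly6d-low. None of these genes passed the filter on low values in either comparison, and at these depths a difference between groups was not detectable.

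Krt14, the type I partner of Krt5 in the basal layer, was nevertheless present in all 8 libraries. It had 9.4 and 6.94 CPM in overexpression, against 7.68 and 7.96 CPM in WT, a log2 difference of 0.05 ± 0.25 (SE; edgeR quasi-likelihood adjusted p = 0.953). It had 10.5 and 14.2 TPM in Ly6d-high, against 14.0 and 15.3 TPM in Ly6d-low, a difference of -0.24 ± 0.19 as log2(TPM + 1) (SE; limma adjusted p = 0.41). The groups overlapped in both comparisons.

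Krt13, a type I keratin of the upper layers of mucosal epithelia, likewise did not pass either test. It had 6.4 and 3.67 CPM in overexpression, against 6.68 and 6.28 CPM in WT (log2 difference -0.38 ± 0.33, SE; edgeR adjusted p = 0.615). It had 20.1 and 20.1 TPM in Ly6d-high, against 18.1 and 20.8 TPM in Ly6d-low (0.05 ± 0.16, SE; limma adjusted p = 0.841), and this small difference turned negative, at -0.23, with TMM factors on TPM. Krt4, the type II keratin that Krt13 pairs with in mucosa, was at 10.2 ± 0.271 CPM in overexpression and 5.93 ± 1.13 CPM in WT, which did not pass (edgeR adjusted p = 0.127), and at 4.79 ± 1.9 TPM in Ly6d-high and 6.02 ± 0.268 TPM in Ly6d-low (SD, n = 2 each; limma adjusted p = 0.416).

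**Figure D1:**
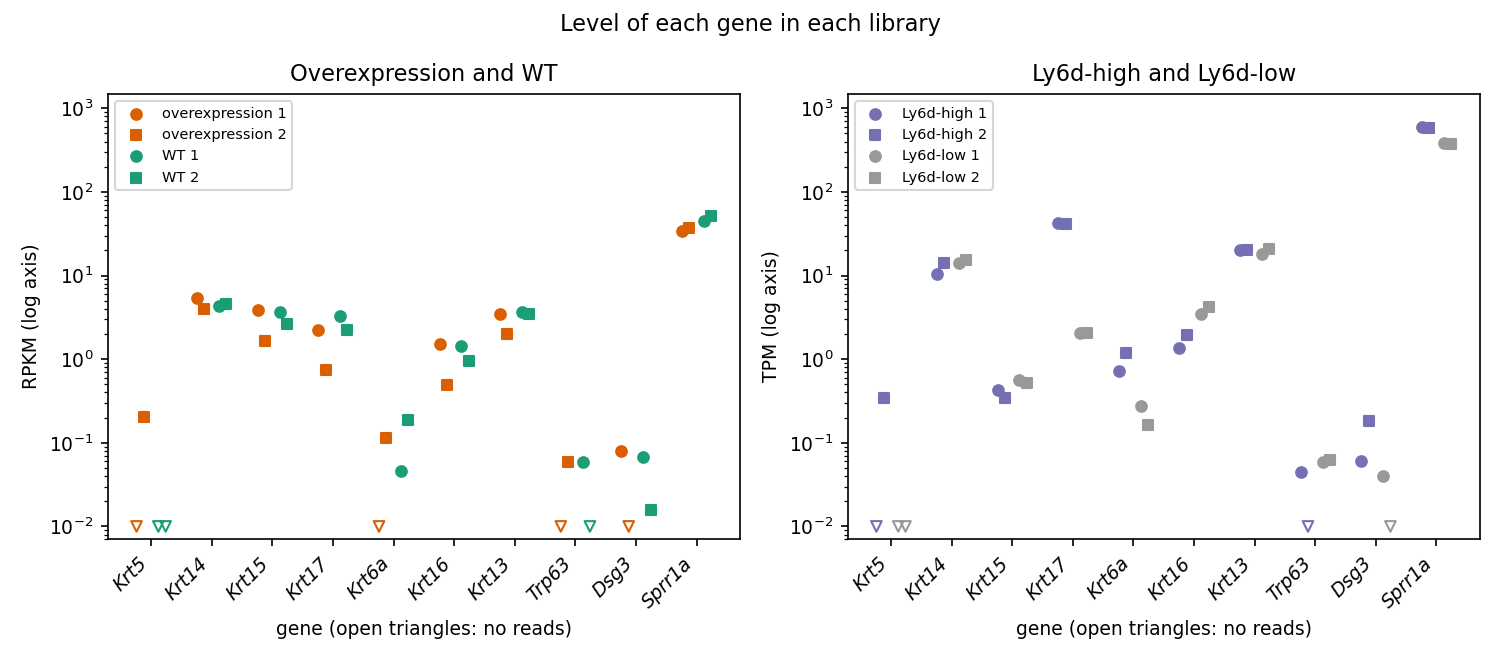
Level of each gene in each library, on log axes, as RPKM (CPM per kilobase of gene) in overexpression and WT (left) and as TPM in Ly6d-high and Ly6d-low (right). Open triangles mark libraries with no reads; Sprr1a stands highest in every library, and Krt17 separates the Ly6d-high from the Ly6d-low libraries.

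Krt17 set the Ly6d-high cells apart. This type I keratin of hair follicles and gland ducts is induced in injured epithelium, and in human pancreatic cancer it marks basal-like tumours. It had 42.9 and 41.0 TPM in Ly6d-high, against 2.03 and 2.03 TPM in Ly6d-low, from 533 and 423 recovered reads against 19 and 24. The groups lay far apart, and the mean TPM was 20.7-fold higher in Ly6d-high. As log2(TPM + 1), Krt17 differed by 3.83 ± 0.16 (SE; adjusted p = 2.89e-05 with limma). The median of all genes in this comparison was 0.25, and Krt17 stood 3.58 above it. On recovered reads, edgeR gave a log2 difference of 4.08 (adjusted p = 5.37e-05). Krt17 passed the threshold under each alternative tried for this comparison.

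With overexpression Krt17 did not pass the test. It had 3.44 and 1.17 CPM in overexpression, against 5.14 and 3.43 CPM in WT, from 63 and 21 counts against 93 and 53. The higher overexpression library just exceeded the lower WT library, and the log2 difference was -0.91 ± 0.51 (SE; edgeR adjusted p = 0.406). Without overexpression replicate 1 the difference was -1.89 (edgeR adjusted p = 0.014), a fit in which the lone overexpression library is assumed to vary like the WT libraries. The 2 comparisons come from separately normalized tables in different units, and the difference between their effects was not tested.

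Sprr1a, a proline-rich protein cross-linked into the cornified envelope of squamous cells, had the highest level of the 10 genes in all 8 libraries. It had 598 and 587 TPM in Ly6d-high, against 380 and 376 TPM in Ly6d-low, without overlap. The mean was 1.57-fold higher in Ly6d-high (0.65 ± 0.10 as log2(TPM + 1), SE; limma adjusted p = 0.00824). Relative to the median of all genes the difference was 0.40. The call was lost with TMM factors on TPM (0.36, adjusted p = 0.153), with edgeR on recovered reads (0.36, adjusted p = 0.0864) and, at nearly the same difference, without Ly6d-low replicate 1 (0.66, adjusted p = 0.153) or Ly6d-low replicate 2 (0.64, adjusted p = 0.15). With overexpression Sprr1a had 27.5 and 30.1 CPM, against 36.4 and 40.9 CPM in WT. These groups did not overlap either, but the log2 difference of -0.44 ± 0.13 did not pass (SE; edgeR adjusted p = 0.0882). It passed with no filter on low counts (adjusted p = 0.0325) and without overexpression replicate 2 (adjusted p = 0.031).

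Krt6a and Krt16, the type II and type I keratins that keratinocytes switch on during wound repair and rapid growth, were low in all 8 libraries. Krt16 had 1.35 and 1.92 TPM in Ly6d-high, against 3.49 and 4.26 TPM in Ly6d-low. The Ly6d-high libraries were both below the Ly6d-low libraries, and the difference of -0.89 ± 0.22 in log2(TPM + 1) just missed the threshold (SE; limma adjusted p = 0.0506). It passed with TMM factors (-1.10, adjusted p = 0.0314) with edgeR on recovered reads (-1.55, adjusted p = 0.0343) and without Ly6d-high replicate 1 (adjusted p = 0.0284) or 2 (adjusted p = 0.033). It did not pass without Ly6d-low replicate 1 (adjusted p = 0.129) or 2 (adjusted p = 0.314), with no filter on low values (adjusted p = 0.174) or with a pseudocount of 0.1 (adjusted p = 0.0578). The reads were 17 and 20 in Ly6d-high against 33 and 51 in Ly6d-low. Krt6a had 0.722 and 1.18 TPM in Ly6d-high, against 0.274 and 0.162 TPM in Ly6d-low, from 14 and 19 reads against 4 and 3. It lay under the filter of 1 TPM in 2 libraries and had no test there, and edgeR on recovered reads gave 1.81 (adjusted p = 0.0997). In overexpression Krt16 had 2.35 and 0.778 CPM, against 2.26 and 1.49 CPM in WT (log2 difference -0.28 ± 0.65, SE; edgeR adjusted p = 0.879), and Krt6a had 0 and 5 counts, against 2 and 7 in WT.

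Krt15, a type I keratin of resting basal and hair follicle stem cells, had 6.89 and 2.94 CPM in overexpression, against 6.46 and 4.66 CPM in WT (log2 difference -0.20 ± 0.40, SE; edgeR adjusted p = 0.857). In the other table it was barely detected, at 0.423 and 0.34 TPM in Ly6d-high, against 0.562 and 0.518 TPM in Ly6d-low, from 6 and 4 reads against 6 and 7, and it lay under the filter. The type I keratins spread within groups in the count table. Krt13, Krt14, Krt15, Krt16 and Krt17 were each higher in overexpression replicate 1 than in replicate 2, by more than 2-fold in CPM for Krt15, Krt16 and Krt17. This spread is part of the error against which the group differences were tested, which edgeR also draws from the other genes.

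**Figure D2:**
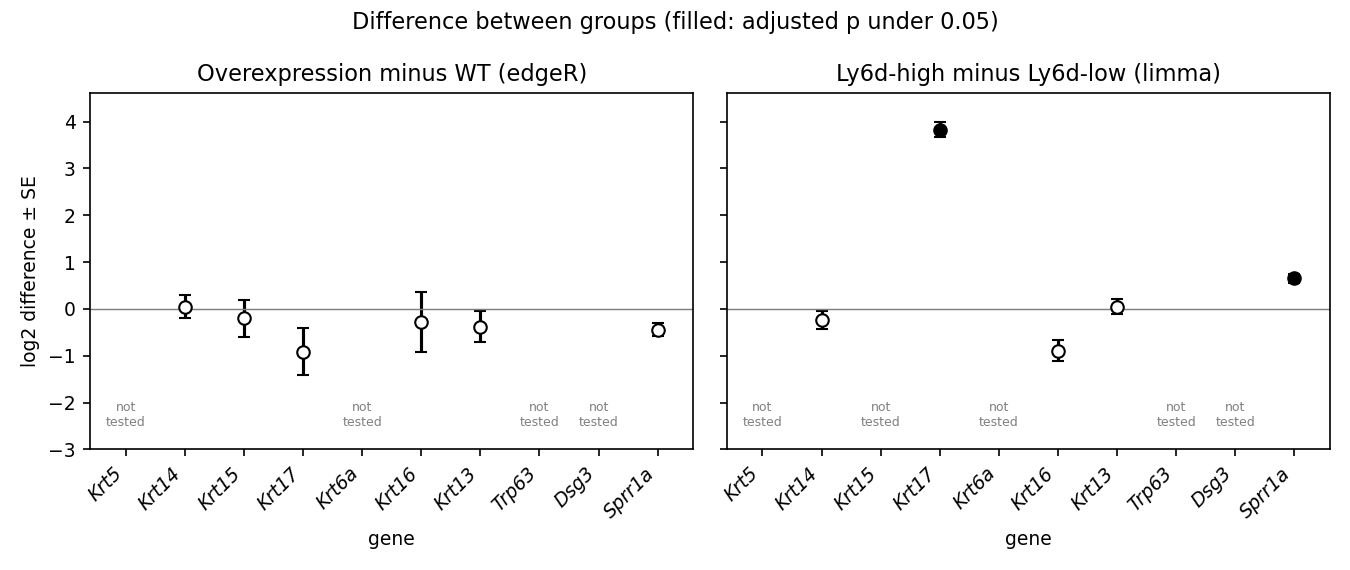
Log2 difference ± SE for each gene that passed the filter, overexpression minus WT from edgeR (left) and Ly6d-high minus Ly6d-low from limma on log2(TPM + 1) (right), with 2 libraries per group. Filled points, Krt17 at 3.83 and Sprr1a at 0.65 in Ly6d-high minus Ly6d-low, had an adjusted p under 0.05.

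Counted together, 0 of the 6 genes tested in overexpression against WT passed an adjusted p of 0.05, while 4.16% of all 15771 genes did (edgeR). At an unadjusted edgeR p under 0.05 the count was 1, Sprr1a, where all genes gave 2727 of 15771. With DESeq2 the adjusted count was also 0. The groups did not overlap for 1 of these 6 genes, against 48% of all genes tested. In Ly6d-high against Ly6d-low, 2 of the 5 genes tested were higher, Krt17 and Sprr1a, and none was lower. Of all 14625 genes tested there, 9.81% passed and 8.64% were higher (limma). That is 1264 higher and 171 lower, against 676 higher and 249 lower with TMM factors on TPM. The groups did not overlap for 3 of the 5, against 64.8% of all genes. With TMM factors 2 of the 5 still passed, but they were Krt17, higher, and Krt16, lower. Only genes that passed the filter enter these counts, and 4 and 5 of the 10 did not.

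Against the simple keratins, the 7 basal and squamous keratins were a minor part of the keratin mRNA. Per length, they made up 0.255% and 0.134% of the summed level of all 53 keratin genes in overexpression, against 0.271% and 0.237% in WT. The shares were 0.194% and 0.207% in Ly6d-high, against 0.0696% and 0.0762% in Ly6d-low. Krt7, Krt8, Krt18, Krt19 and Krt20 made up 99.0% to 99.7% over the 8 libraries. The type II keratins Krt5 and Krt6a together had 0.722 and 1.52 TPM in Ly6d-high. The 5 type I keratins had 75.3 and 77.5 TPM in the same libraries, mostly Krt17 and Krt13. In Ly6d-low the sum of Krt5 and Krt6a was 0.274 and 0.162 TPM, and the type I sum was 38.2 and 42.8 TPM. These sums depend on which genes were chosen. Type II keratins outside the 10 genes are left out, among them Krt4 (mean 4.79 TPM in Ly6d-high), Krt76 (3.39 TPM), Krt79 (3.94 TPM) and Krt80 (3.41 TPM).

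Krt17 was 56.4% and 51.9% of the summed level of the 7 keratins in Ly6d-high, against 5.27% and 4.71% in Ly6d-low. Krt13 and Krt14 together were 40.3% and 43.3% in Ly6d-high, against 83.5% and 83.8% in Ly6d-low. In overexpression Krt17 was 13.5% and 8.18%, against 20.1% and 15.8% in WT. While Krt17 was higher in Ly6d-high, Krt19 was at 9179 and 8693 TPM there, against 14142 and 13998 TPM in Ly6d-low (-0.66 ± 0.07 as log2(TPM + 1), SE; limma adjusted p = 0.00141). The other simple keratins were also called lower, Krt7 at -0.64, Krt8 at -0.5, Krt18 at -0.49 and Krt20 at -0.42. Of the 6 epithelial markers 4 were lower, beside 171 of all 14625 genes. That count was 0 with no filter on low values, 1 with TMM factors on TPM and 5 with edgeR on recovered reads. The Krt19 call was lost with no filter on low values (adjusted p = 0.145) and with TMM factors on TPM (-0.95, adjusted p = 0.0531).

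**Figure D3:**
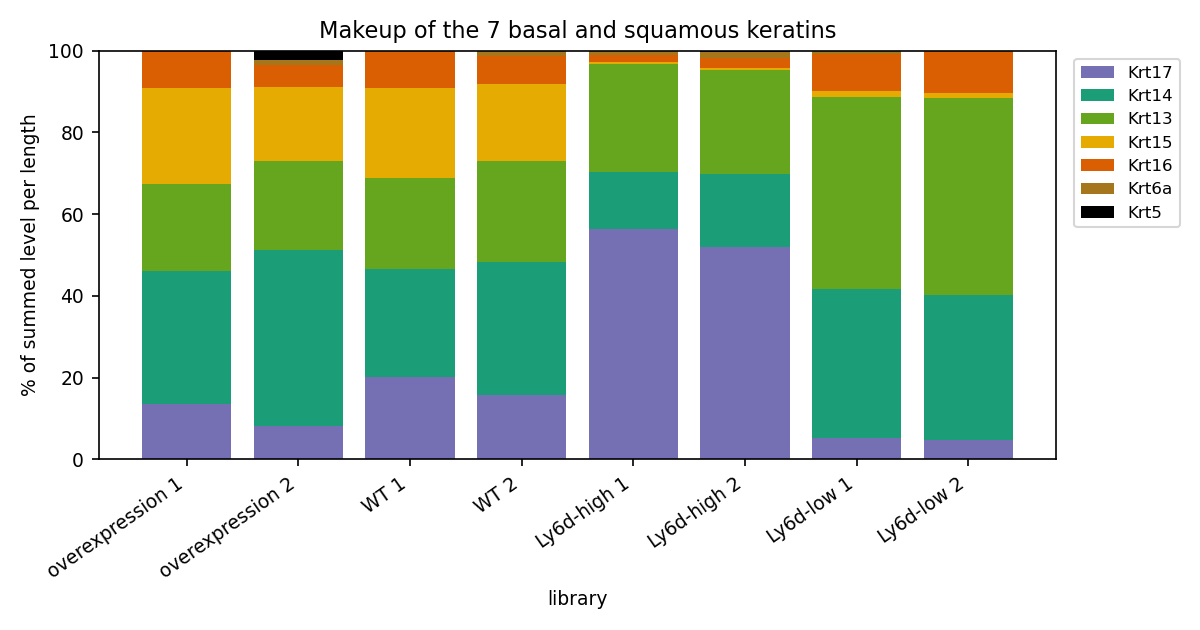
Share of each of the 7 basal and squamous keratins in their summed level per gene length, in percent, for each library. Krt17 (bottom segment) takes 56.4% and 51.9% in Ly6d-high, 5.27% and 4.71% in Ly6d-low, and the Krt15 segment is visible mainly in overexpression and WT.

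The genes with a pattern nearest to that of Krt17 were sought among 11285 named protein-coding genes with a mean of at least 1 in both tables. Likeness was the root mean square difference of log2(value + 1), centred within each table, over the 8 libraries, which share their groups and depth. The 5 nearest were ccdc198 at 0.23, Onecut1 at 0.30, Nradd at 0.304, Cited4 at 0.308 and Adh1 at 0.311, where the median gene was at 1.33. Onecut1, a transcription factor of pancreatic duct and liver, had 8.91 and 11.8 TPM in Ly6d-high, against 0.241 and 0.477 TPM in Ly6d-low, and 2.95 and 0.944 CPM in overexpression, against 4.64 and 3.04 CPM in WT. Adh1, an alcohol dehydrogenase, had 232 and 245 TPM in Ly6d-high, against 26.5 and 28.1 TPM in Ly6d-low.

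The wider stratified programme was read from 4 lists: other keratins of stratified epithelia and hair, desmosome genes, cornified envelope genes and genes of the p63 network in keratinocytes. Of the 18 other keratins, Krt1, Krt2, Krt24, Krt72, Krt73 and Krt77 had no reads in any of the 8 libraries, among them Krt1 and Krt2, which mark differentiating epidermis. None of the 8 tested passed with overexpression and none of the 6 tested in Ly6d-high against Ly6d-low. At an unadjusted p under 0.05 the counts were 3 and 1, where all genes gave 2727 of 15771 and 4499 of 14625. DESeq2 gave 0 in both. Krt23, a keratin of glandular epithelia, was at 144 ± 7.88 TPM in Ly6d-high and 104 ± 6.26 TPM in Ly6d-low (SD, n = 2 each; limma adjusted p = 0.0636). Krt10, the partner of Krt1, was at 12.7 ± 2.25 TPM in Ly6d-high and 14.6 ± 0.219 TPM in Ly6d-low (limma adjusted p = 0.46).

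Desmosomes rivet the keratin filaments of neighbouring cells together. Of 10 desmosome genes tested in Ly6d-high against Ly6d-low, 2 rose, the cadherins Dsc2 and Dsg2, and none fell, where 8.64% of all genes were higher. Dsc2 passed the filter only through the Ly6d-high libraries, so its count among the higher genes is no support. The median difference includes Dsc2, so it is no support either. It was 0.31, against 0.25 over all genes, and 0.04 with TMM factors. Without Ly6d-high replicate 1 the median was 0.50 over 9 genes, against 0.34 over all genes. Without Ly6d-high replicate 2 it was 0.06 over 8 genes, against 0.14 over all genes. Dsc2 was at 3.04 ± 0.821 TPM in Ly6d-high and 0.427 ± 0.0274 TPM in Ly6d-low (1.49 ± 0.24 as log2(TPM + 1); limma adjusted p = 0.0111). Dsg2 was at 26.6 ± 3.26 TPM in Ly6d-high and 13.8 ± 0.0968 TPM in Ly6d-low (limma adjusted p = 0.0165), a call lost without either Ly6d-low library (adjusted p = 0.163 without replicate 1 and 0.151 without replicate 2). With no filter on low values neither passed (adjusted p = 0.073 for Dsc2 and 0.0649 for Dsg2). With overexpression, 1 of 10 fell and none rose, beside 1.84% of all genes that fell. This was again Dsc2, at 1.46 ± 0.0554 CPM in overexpression and 6.10 ± 0.431 CPM in WT (log2 difference -2.08 ± 0.38, SE; edgeR adjusted p = 0.0107). That call was lost without WT replicate 2 (adjusted p = 0.0754).

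The cornified envelope is the protein shell of terminally differentiated squamous cells. Of 28 genes in its list, 9 could be tested in Ly6d-high against Ly6d-low, and 3 rose, where 8.64% of all genes were higher. Of the 9, 2 passed the filter only through the Ly6d-high libraries, Sprr2a1 among them, so its count among the 3 is no support. The median difference over the 9 tested genes, these 2 included, was 0.69, against 0.25 over all genes, and is no support either. Without Ly6d-high replicate 1 it was 0.55 over 7 genes, against 0.34 over all genes. Without Ly6d-high replicate 2 it was 0.16 over 7 genes, against 0.14 over all genes. Involucrin (Ivl), a scaffold of the envelope, was at 11.2 ± 1.28 TPM in Ly6d-high and 4.61 ± 0.313 TPM in Ly6d-low (SD, n = 2 each; limma adjusted p = 0.0102). Sprr2a3 was at 8.93 ± 0.828 TPM in Ly6d-high and 3.46 ± 0.432 TPM in Ly6d-low (adjusted p = 0.0107), and Sprr2a1 at 2.26 ± 0.216 TPM in Ly6d-high and 0.505 ± 0.221 TPM in Ly6d-low (adjusted p = 0.0298). Both belong to the small proline-rich family of Sprr1a and have close copies, among which reads could be split. With TMM factors 1 of the 9 passed, and Sprr2a3 (adjusted p = 0.0531) and Sprr2a1 (adjusted p = 0.0791) did not. Without Ly6d-low replicate 1 the adjusted p was 0.0791 for Ivl and 0.0874 for Sprr2a3, and without Ly6d-low replicate 2 it was 0.133 for Sprr2a1. With no filter on low values none of the 3 passed (adjusted p = 0.0648 for Ivl, 0.0722 for Sprr2a3 and 0.106 for Sprr2a1). With overexpression, 0 of 9 tested passed with edgeR or DESeq2. None had an unadjusted edgeR p under 0.05, where 2727 of all 15771 genes did.

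Of 15 genes of the p63 network tested in Ly6d-high against Ly6d-low, 5 were higher and none lower, where 8.64% of all genes were higher. Trp63 itself was near 0 and not tested. The 3 genes Zfp750, Fgfr2 and Fgfr3 passed the filter only through the Ly6d-high libraries, so they could not be tested when either of these was left out, and their count is no support. The median, these 3 genes included, was 0.39, against 0.25 over all genes, and is no support either. Without Ly6d-high replicate 1 the median was 0.49 over 12 genes, against 0.34 over all genes. Without Ly6d-high replicate 2 it was 0.15 over 12 genes, against 0.14 over all genes. Zfp750, a regulator of keratinocyte differentiation, was at 2.13 ± 0.281 TPM in Ly6d-high and 0.0405 ± 0.0573 TPM in Ly6d-low, from 100 reads against 2 (1.59 ± 0.24 as log2(TPM + 1); limma adjusted p = 0.00767). Ovol1, a repressor of basal cell growth, was at 4.61 ± 0.741 TPM in Ly6d-high and 1.19 ± 0.0178 TPM in Ly6d-low (adjusted p = 0.00885). Fgfr2, a growth factor receptor gene, was at 4.52 ± 0.727 TPM in Ly6d-high and 0.186 ± 0.0593 TPM in Ly6d-low (adjusted p = 0.00136). Fgfr3, of the same family, was at 7.36 ± 1.59 TPM in Ly6d-high and 0.557 ± 0.298 TPM in Ly6d-low (adjusted p = 0.00133). Sfn, an adaptor protein of stratified epithelia, was at 118 ± 0.785 TPM in Ly6d-high and 80.7 ± 4.92 TPM in Ly6d-low (adjusted p = 0.0416), a call lost with TMM factors (adjusted p = 0.21) and with edgeR on recovered reads (adjusted p = 0.184). With no filter on low values Ovol1 (adjusted p = 0.0769) and Sfn (adjusted p = 0.0854) did not pass.

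With overexpression, 2 of 19 tested genes of the p63 network fell and none rose, where 1.84% of all genes fell. Fgfr3 was at 11.5 ± 2.04 CPM in overexpression and 36.9 ± 1.14 CPM in WT (log2 difference -1.70 ± 0.16, SE; edgeR adjusted p = 9.93e-05). Fgfr2 was at 5.57 ± 0.998 CPM in overexpression and 16.2 ± 1.48 CPM in WT (-1.56 ± 0.22, SE; edgeR adjusted p = 0.00218). Zfp750 was at 1.44 ± 0.562 CPM in overexpression and 1.49 ± 0.55 CPM in WT (adjusted p = 0.973). Fgfr2, Fgfr3 and Dsc2 were thus called lower in overexpression than in WT and higher in Ly6d-high than in Ly6d-low. In the latter comparison these genes passed the filter only through the Ly6d-high libraries, so only a higher call was open to them. The opposite directions are therefore no support for a link, and how many other genes shared them was not counted.

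**Figure D4:**
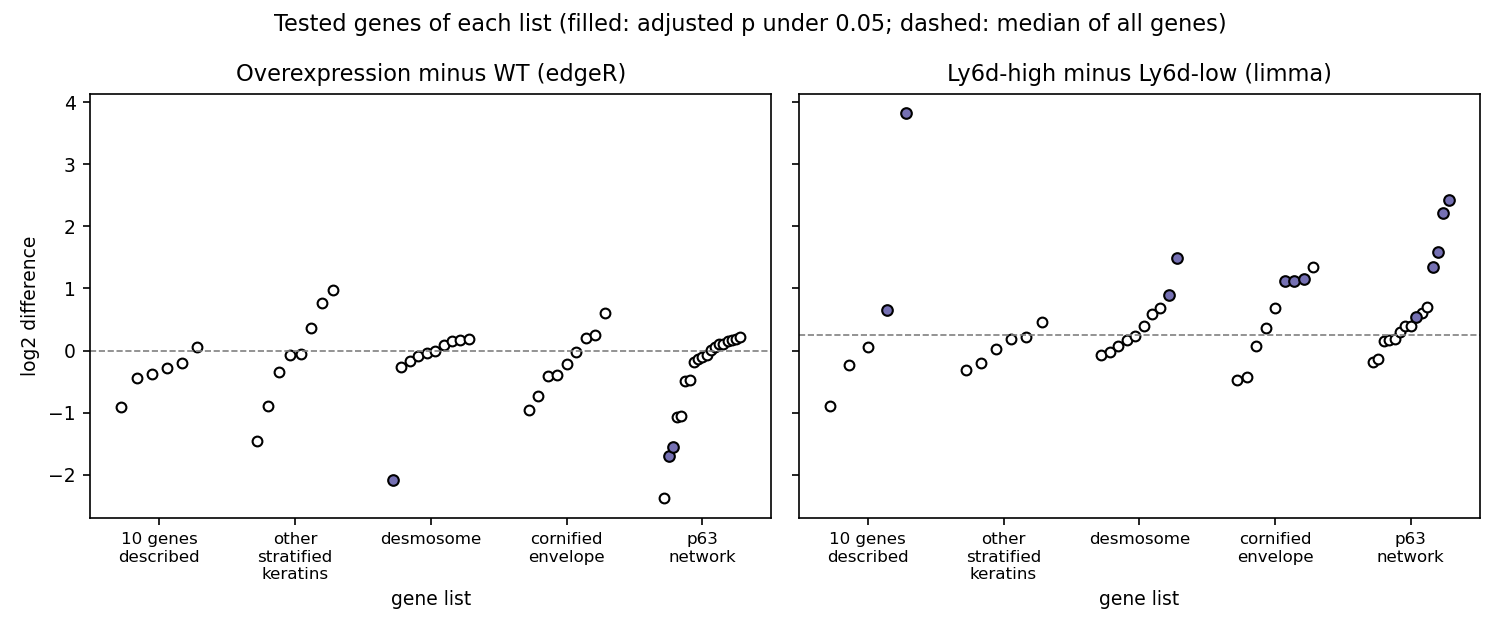
Log2 difference of each tested gene in the 10 described genes and in the 4 lists of the stratified programme, overexpression minus WT (left, edgeR) and Ly6d-high minus Ly6d-low (right, limma on log2(TPM + 1)). Filled points had an adjusted p under 0.05; dashed lines mark the median of all genes, 0.25 on the right.

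Markers of other cell types moved with the groups in these bulk libraries, where fewer cells of a type and less RNA per cell cannot be told apart. In Ly6d-high the 6 B and plasma cell markers summed to 1855 and 1635 TPM, against 1.94 and 1.93 TPM in Ly6d-low, the 6 macrophage markers to 185 and 173 TPM, against 60.4 and 55.5 TPM, and the 7 acinar markers to 11772 and 10320 TPM, against 4343 and 4339 TPM. Of the tested genes of these lists, 4 of 4, 3 of 5 and 5 of 7 were higher (limma), where 8.64% of all genes were. Among them, 3 of the 4 B and plasma cell genes passed the filter only through Ly6d-high, so their count is no support. The macrophage gene Csf1r, which was not called, also passed it only through Ly6d-high. The part of these cell types in the Krt17 and Sprr1a differences was not tested. The 7 mesothelial markers, from a cell layer that can make keratins, summed to 859 and 1034 TPM in Ly6d-high, against 956 and 991 TPM in Ly6d-low. These sums overlapped but were almost all Msln (means of 940 TPM and 970 TPM), so they say little about the other markers. Of 3 mesothelial genes tested, 1 was higher and none lower, where 8.64% of all genes were higher. This was Gpm6a, at 3.25 ± 0.621 TPM in Ly6d-high and 0.8 ± 0.325 TPM in Ly6d-low (limma adjusted p = 0.0228). With TMM factors on TPM 0 of the 3 passed. Upk3b, Lrrn4, Wt1 and Muc16 lay under the filter. In overexpression, acinar markers summed to 1216 and 1322 CPM, against 15830 and 16221 CPM in WT, neutrophil markers to 117 and 127 CPM, against 3.31 and 1.75 CPM, and macrophage markers to 167 and 176 CPM, against 44.3 and 42.6 CPM. B and plasma cell markers summed to 333 and 352 CPM in overexpression, against 30.7 and 27.6 CPM in WT, and endothelial markers to 119 and 135 CPM, against 243 and 244 CPM. Whether these bear on the Dsc2, Fgfr2 and Fgfr3 differences was not tested.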

How the data were processed

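RNA was extracted with TRIzol, per the labels' protocols. The authors' tools, per the submitters' processing notes, include DESeq2, featureCounts, HISAT2 and fastp, with the build mm9 and no versions. The tables' gene coordinates are those of GRCm38: 98.3% of the genes found in GENCODE M21, and 9 of the 10 described genes (all but Dsg3), have the same chromosome, start and end. Strand use in counting is not given. The deposited count table holds raw counts per gene, and the deposited TPM table TPM scaled over the listed gene length. The other deposited column used gives gene length in bases. No label matched a further 2 per-sample count columns, which were left out.

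Counts were scaled to CPM and RPKM by library totals and tested with edgeR 4.0.16 in R 4.3.3 (filterByExpr, TMM, quasi-likelihood test). RPKM was used to compare genes because a short RNA gene took a large part of a per-length sum in a WT library. TPM were tested with limma 3.58.1 (trend on), after adding a pseudocount of 1 and taking log2, for genes reaching 1 TPM in 2 or more libraries. Reads were recovered from TPM times length: 100% of 85643 values above 0 were whole within 0.1 reads. DESeq2 1.42.0 was an alternative. SE from edgeR is the log2 difference divided by the square root of F. P-values were adjusted by Benjamini-Hochberg over all genes tested, with a threshold of 0.05. Where leaving out 1 library left a group with 1, that library is assumed to vary like those of the other group. Scripts were tested on simulated data. Intervals and limits cover counting error only.

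The genes and lists were chosen with earlier results of these data known. Named genes are all 10 members, up to 4 genes of each list of the stratified programme with the lowest p in each comparison, and the 5 genes nearest to the member with the largest Ly6d-high difference. Named outside this rule are Ly6d, Sfn, Krt79, simple keratins, epithelial markers, keratins without reads, genes sharing sequence and markers of other cell types. Mean ± SD is over 2 libraries.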

Additional observations from a re-analysis of the deposited data

How the results depend on the processing

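In Ly6d-high against Ly6d-low, 1435 of all genes passed. The count was 531 with no filter on low values, 925 with TMM factors on TPM (676 higher and 249 lower, against 1264 and 171), and 4179 with the replicate number as a block. Leaving out 1 library gave 931 to 6710, the highest without Ly6d-high replicate 1 and the lowest without Ly6d-low replicate 1, and 1 to 3 of the 10 genes. In overexpression against WT, 656 genes passed. With no filter on low counts 1187 did, and 1 of the 10 genes, Sprr1a. Leaving out 1 library gave 565 to 1584 genes, 1584 without overexpression replicate 1 and 1062 without overexpression replicate 2, and 0 to 1 of the 10 genes.

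Small differences that had not passed changed sign. Krt13, Ly6d-high minus Ly6d-low, was -0.23 with TMM factors, -0.24 with edgeR and -0.25 with DESeq2 on recovered reads, and ran from -0.045 to 0.14 when 1 library was left out. In overexpression minus WT, leaving out 1 library gave -0.19 to 0.24 for Krt14, -0.94 to 0.28 for Krt15 and -1.29 to 0.29 for Krt16. The cause of these moves was not tested.

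No paired analysis was possible for overexpression against WT because the overexpression columns cannot be matched to single labelled samples, so their 1 and 2 are only names. For Ly6d-high against Ly6d-low the replicate block could be fitted. Deviations of the libraries numbered 1 correlated at 0.0681 over 14625 genes, so the numbers are not taken to pair the libraries. Under the block 3 of the 10 genes passed, Krt16 being added at an adjusted p of 0.00199. Depth limits Krt5, Krt6a, Trp63 and Dsg3, which had at most 19 reads in any library.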
